A study of Drosophila melanogaster with 36 samples.

Results

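The cuticle protein genes described here are the genes whose current symbol starts with Cpr plus a digit, Lcp plus a digit, Ccp84, Acp65A or Pcp, or is exactly Acp1. Of 10797 named genes on the array, 76 met this rule and 70 were tested. They were chosen by name, with earlier results of these data known. Adult Drosophila melanogaster of 3 strains were compared on 36 arrays in 2 colours: the wild-type strain Oregon[R], the strain Antennapedia[73b] and the strain Apterous[56f]. Antennapedia[73b] carries an allele of Antp, a homeotic gene that directs leg identity, and Apterous[56f] an allele of ap, a homeodomain gene needed for the wing. All flies came from a commercial stock supplier, no agent was given to any group, and the sources used here give neither sex, nor exact age, nor how many extractions of RNA were made. Each of the 9 ordered pairs of strains was hybridised on 4 arrays, so that 12 arrays held a strain against itself and 8 arrays held each pair of different strains, 4 in each channel order. Nothing in the labels says that the arrays of a group came from separate flies or extracts, so a p-value here covers the spread among arrays alone, and that spread may be technical.

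The insect cuticle is built of chitin fibres and proteins secreted by the epidermis. Most of the genes counted here belong to the CPR family, named for the Rebers and Riddiford consensus, a stretch of the protein that binds chitin. Different members are used in the larval, pupal and adult cuticle, in soft and in hard cuticle, and the proteins are laid down mainly around each moult and in the first days of adult life. Many of them lie side by side in tandem clusters, and a symbol such as Cpr49Ah names the cytological band of the gene. Lcp genes were named for the larval cuticle, Pcp for the pupal cuticle and Acp65Aa for the adult cuticle, and the Ccp84A cluster lies inside the Antennapedia complex of homeotic genes.

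Every value below is a log2 ratio between the channels of an array, or a difference between strains fitted from these ratios over all 36 arrays with a term for the dye. The deposited numbers do not tell which channel a positive ratio favours. A difference is therefore given by side: on the plus side the strain named first has more transcript if the ratio is channel 1 over channel 2, and less if it is the opposite ratio. Ratios give no level, so neither the abundance of a cuticle transcript nor the order of abundance among members can be read from these arrays. In whole flies, fewer cells of a type and less RNA per cell cannot be told apart. The median standard error (SE) of a member's difference was 0.057 in each comparison, close to 0.056 over all rows, a row being a gene or an array element without 1 gene.

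Of the 76 genes, 71 were measured by 1 array element and 5 by 2 elements, and 57 of the 70 tested genes had a value on all 36 arrays. Cpr12A, Cpr49Af, Cpr65Ec, Lcp65Ac, Lcp65Af and Lcp9 had values on 0 to 6 arrays and were not tested. Acp1 and the genes Lcp1 to Lcp4 had no named element and were not analysed here. In Cpr31A the 2 elements differed in a call: in Apterous[56f] against Oregon[R] they gave 0.24 (adjusted p = 0.031) and -0.00 (0.98), and in Antennapedia[73b] against Apterous[56f] -0.29 (adjusted p = 0.0073) and 0.03 (0.84). The mean of both elements did not pass in either comparison. For Ccp84Ad and Cpr66D both elements were tested and none was called, and for Ccp84Ag and Cpr50Ca a single element was tested on its own.

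Between Antennapedia[73b] and Oregon[R], 14 of 70 cuticle protein genes passed the threshold of 0.05 on the adjusted p (limma, Benjamini-Hochberg over 13296 rows), which is 20.0% beside 23.3% of all rows. Of these, 6 lay on the plus and 8 on the minus side. Between Apterous[56f] and Oregon[R], 14 of 70 passed, 9 on the plus and 5 on the minus side, which is 20.0% beside 15.9% of all rows. In the 8 direct arrays alone 6 were called on the plus and 0 on the minus side, beside 456 and 288 of all 13296 rows. Without the dye term 7 and 2 were called, beside 679 and 557. In Antennapedia[73b] against Apterous[56f], 13 of 70 passed, 3 on the plus and 10 on the minus side, which is 18.6% beside 15.7%. The share called was thus near the background in all 3 comparisons. By side the background was 11.7% plus and 11.6% minus in the first comparison, 8.45% and 7.48% in the second, and 8.33% and 7.38% in the third. Over the 3 comparisons, 25 of 70 members (35.7%) were called at least once, beside 33.2% of all rows. The 3 comparisons share their arrays and are not independent of each other.

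Most differences were small. The median difference of the 70 members was -0.01 between Antennapedia[73b] and Oregon[R], 0.02 between Apterous[56f] and Oregon[R] and -0.03 between Antennapedia[73b] and Apterous[56f], beside 0.00, -0.00 and -0.00 over all rows. The median size of a difference, whatever its side, was 0.092, 0.067 and 0.071, beside 0.076, 0.071 and 0.068. Only Acp65Aa and Cpr49Ah were called with a difference of 1.5-fold or more, both between Antennapedia[73b] and Apterous[56f], where 0.903% of all rows were. No member reached 1.5-fold against Oregon[R], where 1.37% and 0.745% of all rows did. At an unadjusted p under 0.05 the members numbered 24, 21 and 24, which is 34.3%, 30.0% and 34.3% beside 33.6%, 28.7% and 27.2% of all rows.

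**Figure D1:**
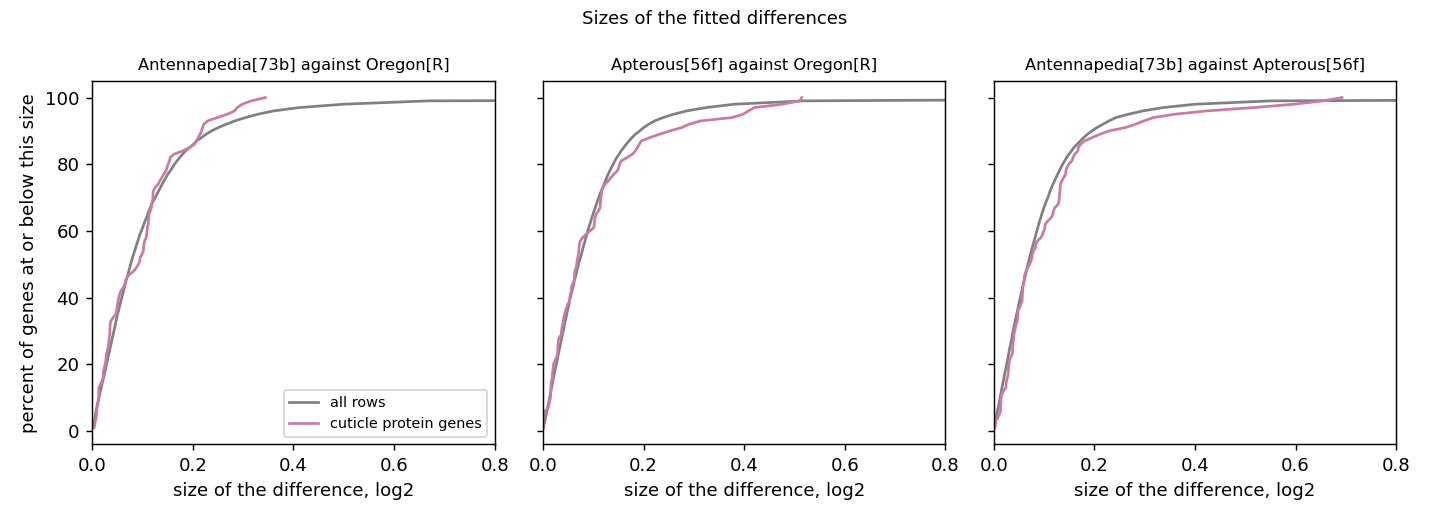
Cumulative share (vertical axis, percent) of cuticle protein genes and of all rows at or below a given size of the fitted difference (horizontal axis, log2), 1 panel per comparison, drawn from the 1st percentile up to a size of 0.8. The line of the 70 cuticle protein genes runs close to that of the 13296 rows, and a few members lie beyond 0.3 in every panel.

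Apterous[56f] stood apart from both other strains on the plus side in Cpr97Eb, Cpr92F, Cpr49Ah and Acp65Aa, which makes 4 of 70 members beside 2.50% of all rows. These 4 genes held 4 of the 5 largest differences of a tested cuticle protein gene between Apterous[56f] and Oregon[R], and the 4 largest between Antennapedia[73b] and Apterous[56f]. They lie at separate places, Cpr97Eb and Cpr92F on arm 3R, Cpr49Ah on 2R and Acp65Aa on 3L (RefSeq annotation of assembly Release 6). Cpr97Eb and Cpr92F did not pass between Antennapedia[73b] and Oregon[R], while Cpr49Ah and Acp65Aa were called there on the minus side.

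Cpr97Eb is a CPR gene that lies beside Cpr97Ea. On arrays with Apterous[56f] in channel 1 and Oregon[R] in channel 2 its 4 ratios were 0.50, 0.53, 0.79 and 0.38, and in the opposite order they were -0.32, -0.49, -0.56 and -0.43. All 8 arrays lay on the plus side of Apterous[56f], and the channel orders did not overlap. The fitted difference was 0.51 (1.43-fold, SE 0.048, limma adjusted p = 5.5e-12). Against Antennapedia[73b] in channel 1 the ratios were -0.58, -0.43, -0.26 and -0.43, and with Apterous[56f] in channel 1 they were 0.50, 0.60, 0.85 and 0.69. Again all 8 arrays lay on the same side, with a difference of -0.53 for Antennapedia[73b] against Apterous[56f] (SE 0.048, limma adjusted p = 2.2e-12). For Antennapedia[73b] against Oregon[R] the difference was -0.01 (95% interval -0.11 to 0.08, limma adjusted p = 0.89). On the 12 self-hybridised arrays the ratio of Cpr97Eb ran from -0.36 to 0.14 with a median of 0.00.

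Cpr92F also had Apterous[56f] on the plus side of both other strains. Its ratios on arrays with Apterous[56f] in channel 1 and Oregon[R] in channel 2 were 0.60, 0.81, 0.39 and 0.56, and with Oregon[R] in channel 1 they were -0.32, -0.42, -0.49 and -0.49. No array of one order reached the range of the other, and the difference was 0.51 (1.42-fold, SE 0.049, limma adjusted p = 1.2e-11). In the arrays shared with Antennapedia[73b] the ratios were -0.32, -0.20, -0.37 and -0.32 in one order and 0.55, 0.44, 0.48 and 0.44 in the other. These orders were also apart, and the difference of Antennapedia[73b] against Apterous[56f] was -0.39 (SE 0.049, limma adjusted p = 1.6e-08). Antennapedia[73b] and Oregon[R] differed in Cpr92F by 0.12 (95% interval 0.02 to 0.22, limma adjusted p = 0.073).

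Cpr49Ah is the outermost of the 5 tested genes at band 49A. Against Oregon[R] its ratios were 0.54, 0.54, 0.54 and 0.38 with Apterous[56f] in channel 1, and -0.20, -0.26, -0.38 and -0.63 with Oregon[R] in channel 1. The orders did not overlap, and the difference was 0.42 (1.34-fold, SE 0.066, limma adjusted p = 3.1e-06). Between the mutant strains the ratios were -0.76, -0.54, -0.32 and -1.01 with Antennapedia[73b] in channel 1, and 0.39, 0.44, 0.83 and 0.74 with Apterous[56f] in channel 1. This was the wider separation, with a difference of -0.64 (1.56-fold, SE 0.066, limma adjusted p = 1.1e-10). Antennapedia[73b] against Oregon[R] gave -0.06, -0.31, -0.42 and -0.51 in one order and 0.35, -0.20, 0.43 and -0.06 in the other. Here the orders overlapped, and the difference was -0.22 (SE 0.066, limma adjusted p = 0.012). That last call was lost in the 8 direct arrays (adjusted p = 0.057), in the first 2 arrays of each group (0.3) and in the odd-numbered arrays (0.17).

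Acp65Aa, the gene named for the adult cuticle, had the largest difference of any member. With Antennapedia[73b] in channel 1 and Apterous[56f] in channel 2 its ratios were -0.38, -0.67, -0.31 and -0.92, and in the opposite order 0.70, 0.55, 0.80 and 0.42. All 8 arrays lay on the minus side of Antennapedia[73b], with a difference of -0.69 (1.62-fold, SE 0.073, limma adjusted p = 1.6e-10). Apterous[56f] against Oregon[R] gave 0.38, 0.38, 0.87 and 0.51, and the opposite order -0.26, -0.94, 0.01 and -0.57. The orders did not overlap, 7 of 8 arrays lay on the plus side, and the difference was 0.39 (SE 0.073, limma adjusted p = 6.9e-05). Antennapedia[73b] against Oregon[R] gave -0.38, -0.42, -0.83 and 0.07, and the opposite order 0.40, 0.20, 0.63 and 0.43. Again 7 of 8 arrays agreed in side, and the difference was -0.30 (SE 0.073, limma adjusted p = 0.0012). Oregon[R] thus lay between the mutant strains in Acp65Aa and in Cpr49Ah. In the odd-numbered arrays the Acp65Aa difference of Antennapedia[73b] against Oregon[R] was -0.18 (adjusted p = 0.24), and in the even-numbered arrays that of Apterous[56f] against Oregon[R] was 0.25 (adjusted p = 0.071). On self-hybridised arrays Acp65Aa ranged from -0.37 to 0.37 and Cpr49Ah from -0.47 to 0.52, so that some single arrays of 2 strains fell inside the range of arrays without a strain difference.

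**Figure D2:**
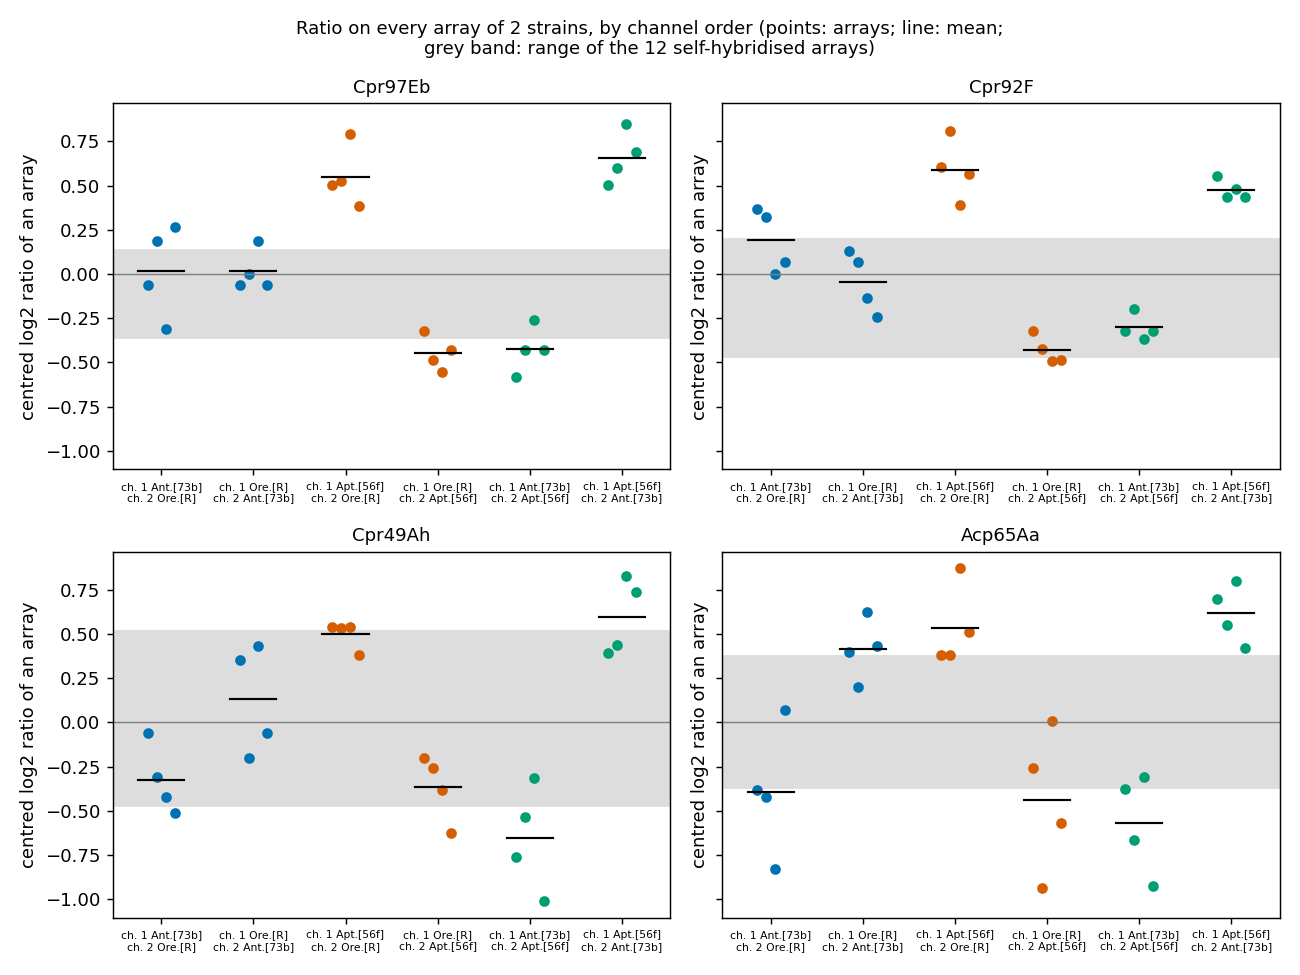
Centred log2 ratio of each array (vertical axis) for Cpr97Eb, Cpr92F, Cpr49Ah and Acp65Aa, by the strains in channel 1 and channel 2 (horizontal axis, ch. 1 above ch. 2; Ant., Apt. and Ore. stand for Antennapedia, Apterous and Oregon); points are arrays, black lines the mean of 4 arrays and the grey band the range of the 12 self-hybridised arrays. In all 4 genes the arrays with Apterous[56f] in channel 1 lie above 0 and those with it in channel 2 lie at or below 0.01.

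These differences of Apterous[56f] from both other strains were also called within each batch of arrays, by place in the group or parity of the array number, except for Acp65Aa against Oregon[R] in the even-numbered arrays. Cpr97Eb against Oregon[R] was 0.50 in the first 2 arrays of each group and 0.53 in the last 2, and 0.50 and 0.53 in the even-numbered and odd-numbered arrays. Cpr92F was 0.53 and 0.49 by place in the group, and 0.48 and 0.54 by parity. Cpr49Ah was 0.39 and 0.45, and 0.36 and 0.48. Acp65Aa was 0.40 and 0.38 by place, and 0.25 and 0.53 by parity. Under every alternative in which they were tested, the calls of Cpr97Eb, Cpr92F, Cpr49Ah, Cpr100A and Cpr67B held between Apterous[56f] and Oregon[R], those of Acp65Aa, Cpr49Ah, Cpr97Eb, Cpr92F and Cpr35B between the mutant strains, and those of Cpr100A, Cpr49Aa and Cpr67B between Antennapedia[73b] and Oregon[R]. Each of the other called members lost its call under at least 1 alternative.

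Oregon[R] stood apart from both mutant strains in 5 members. Cpr100A, Cpr67B and Cpr65Az lay on the plus side of both mutant strains against Oregon[R], and Cpr30B and Cpr64Ac on the minus side. None of the 5 passed between Antennapedia[73b] and Apterous[56f]. Among all rows 4.33% had the first pattern and 4.29% the second, beside 3 and 2 of 70 members.

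Cpr100A had the largest difference of a cuticle protein gene between Antennapedia[73b] and Oregon[R]. Its ratios were 0.73, 0.36, 0.37 and 0.48 with Antennapedia[73b] in channel 1 and -0.13, -0.07, -0.42 and -0.63 with Oregon[R] in channel 1. All 8 arrays lay on the plus side, with a difference of 0.34 (1.27-fold, SE 0.055, limma adjusted p = 3e-06). Apterous[56f] against Oregon[R] gave 0.38, 0.41, 0.79 and 0.34, and the opposite order -0.14, -0.32, -0.29 and -0.14. The orders were apart here too, with a difference of 0.40 (1.32-fold, SE 0.055, limma adjusted p = 1.8e-07). Between the mutant strains Cpr100A differed by -0.06 (95% interval -0.17 to 0.05, limma adjusted p = 0.52), and its self-hybridised arrays lay between -0.19 and 0.19.

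Cpr67B differed less but as evenly. Antennapedia[73b] against Oregon[R] gave 0.26, 0.06, 0.13 and 0.38, and the opposite order -0.32, -0.20, -0.14 and -0.29. Apterous[56f] against Oregon[R] gave 0.39, 0.14, 0.27 and 0.53, and the opposite order -0.26, -0.20, -0.06 and -0.12. In both comparisons all 8 arrays agreed in side. The differences were 0.22 (SE 0.042, limma adjusted p = 5.4e-05) and 0.25 (SE 0.042, limma adjusted p = 1.1e-05), and between the mutant strains -0.03 (95% interval -0.11 to 0.05).

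Cpr65Az gave -0.06, 0.13, 0.19 and 0.26 with Antennapedia[73b] in channel 1 and -0.20, -0.42, -0.47 and -0.59 with Oregon[R] in channel 1. The orders were apart, and the difference was 0.25 (SE 0.053, limma adjusted p = 0.00021). Its self-hybridised arrays all lay below 0, from -0.62 to -0.06, and its fitted dye term was -0.18. Against Oregon[R], Apterous[56f] differed by 0.18 (SE 0.053, limma adjusted p = 0.016), a call lost without array 56 (adjusted p = 0.056), in the 8 direct arrays (0.26) and in each subset by place or parity (0.098 to 0.2).

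On the other side, Cpr30B gave -0.42, -0.19, -0.24 and 0.13 with Antennapedia[73b] in channel 1 and 0.35, 0.31, 0.38 and 0.49 with Oregon[R] in channel 1. Array 65 was the exception in side among the 8, the orders did not overlap, and the difference was -0.28 (SE 0.062, limma adjusted p = 0.00044). Apterous[56f] against Oregon[R] gave -0.31, -0.53, 0.14 and -0.07, and the opposite order 0.32, 0.06, 0.74 and 0.48. These orders overlapped, with a difference of -0.30 (SE 0.062, limma adjusted p = 0.00034). Cpr64Ac differed by -0.18 (limma adjusted p = 0.022) and -0.19 (limma adjusted p = 0.022) in the same comparisons. Its self-hybridised arrays ran from -0.63 to -0.07, the first call was lost without array 63 (adjusted p = 0.072), and the second was lost without array 55, 57 or 69 (0.054, 0.068 and 0.056). Both were lost in the last 2 arrays of each group (0.28 and 0.35) and in the even-numbered arrays (0.36 and 0.92).

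Antennapedia[73b] stood apart from both other strains on the plus side in Pcp and Cpr47Ef (2 of 70, beside 5.18% of all rows), and on the minus side in Acp65Aa, Cpr49Ah, Cpr57A and Cpr51A (4 of 70, beside 3.69%). Pcp, the pupal cuticle gene, gave 0.25, 0.13, 0.29 and 0.26 with Antennapedia[73b] in channel 1 and 0.00, -0.07, -0.31 and -0.19 with Oregon[R] in channel 1. The orders were apart, and the difference was 0.21 (SE 0.042, limma adjusted p = 8.8e-05). This call was lost in the 8 direct arrays (adjusted p = 0.053). Against Apterous[56f] Pcp gave 0.20, 0.42, 0.20 and 0.43, and the opposite order -0.13, -0.07, 0.07 and -0.07. These were apart as well, with a difference of 0.16 (SE 0.042, limma adjusted p = 0.0048). It was not called in the 8 direct arrays (adjusted p = 0.07) or in the last 2 arrays of each group (0.19). Nor was it called in the even-numbered (0.23) or the odd-numbered arrays (0.072). Pcp lies within Gart, a gene of purine synthesis, and Gart itself differed by -0.01 (limma adjusted p = 0.88) and 0.07 (limma adjusted p = 0.23) in these comparisons. The sources used here do not say which strand the array elements report.

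Cpr57A gave -0.45, -0.32, -0.26 and -0.20 with Antennapedia[73b] in channel 1 and -0.06, 0.49, 0.05 and 0.58 with Apterous[56f] in channel 1. The orders did not overlap, and the difference was -0.29 (SE 0.055, limma adjusted p = 6.5e-05). Against Oregon[R] it was -0.22 (SE 0.055, limma adjusted p = 0.0016). Both calls of Cpr57A were lost in the even-numbered arrays (0.058 and 0.057), and the one against Oregon[R] also in the 8 direct arrays (0.054). Cpr51A differed by -0.20 in both comparisons (limma adjusted p = 0.0089 against Oregon[R] and 0.012 against Apterous[56f]), and its channel orders overlapped in each. Both calls of Cpr51A were lost in the 8 direct arrays (0.056 and 0.077) and in the odd-numbered arrays (0.092 and 0.072). In the annotation Cpr57A and Cpr51A overlap the genes Obp57d and CG30197, which were not tested. Cpr47Ef differed by 0.14 against Oregon[R] (limma adjusted p = 0.044) and 0.17 against Apterous[56f] (limma adjusted p = 0.021), with overlapping orders. The first of these calls was lost on leaving out any of 11 arrays in turn, with an adjusted p of up to 0.18, and the second without array 60 or 61 (0.056 and 0.057). In the 8 direct arrays both were lost (0.14 and 0.3). By place or parity the first was called only in the even-numbered arrays (0.027), and the second in no subset (0.058 to 0.33).

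The remaining calls stood in 1 comparison, or in 2 for Cpr64Aa. Cpr49Aa gave -0.13, -0.38, -0.68 and -0.67 with Antennapedia[73b] in channel 1 and -0.06, 0.20, 0.14 and 0.58 with Oregon[R] in channel 1. Its orders were apart, with a difference of -0.29 (SE 0.057, limma adjusted p = 9.3e-05). Cpr64Aa lay on the minus side of Apterous[56f] against both other strains, the single member to do so beside 1.71% of all rows, with a difference of -0.28 against Oregon[R] (SE 0.061, limma adjusted p = 0.00058) and 0.18 for Antennapedia[73b] against Apterous[56f] (limma adjusted p = 0.036). The first was -0.14 in the first 2 arrays of each group (adjusted p = 0.17) and -0.43 in the last 2 (0.00083), and it was not called in the 8 direct arrays (0.17). The second was lost on leaving out any of 7 arrays in turn (adjusted p of up to 0.11). It was also lost in the first 2 arrays of each group (0.93) and in the even-numbered arrays (0.53). Between the mutant strains Cpr35B differed by -0.32 (SE 0.081, limma adjusted p = 0.0032) with 7 of 8 arrays on that side. Apterous[56f] against Oregon[R] gave -0.20 for Cpr56F (SE 0.056, limma adjusted p = 0.012), whose self-hybridised arrays ran from -0.69 to -0.05 and whose call was lost in the first 2 arrays of each group (0.56) and in the odd-numbered arrays (0.28). Cpr97Ea differed by 0.15 between Antennapedia[73b] and Oregon[R] (limma adjusted p = 0.032), lost on leaving out any of 7 arrays in turn (up to 0.084). This call was also lost in each subset by place or parity (adjusted p of 0.051 to 0.49), under quantile normalization (0.13) and without the dye term (0.055).

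Another 5 called members lay outside the rule for named genes and are given for completeness, chosen after their values were seen. Between Antennapedia[73b] and Apterous[56f], Cpr76Bd differed by -0.27 (limma adjusted p = 0.00025), Cpr49Ac by -0.22 (limma adjusted p = 0.0055) and Cpr72Ec by -0.15 (limma adjusted p = 0.023). The call of Cpr76Bd was lost in the last 2 arrays of each group (adjusted p = 0.14) and in the odd-numbered arrays (0.085). That of Cpr49Ac was lost in the 8 direct arrays (0.079), the last 2 arrays of each group (0.16) and the even-numbered arrays (0.18). Cpr72Ec is one of the cuticle genes used in the corneal lens of the eye. Its call was lost without array 60 or 72 (0.07 and 0.057), in the 8 direct arrays (0.21) and in the first 2 arrays of each group (0.54). By parity it was lost in the even-numbered (0.25) and odd-numbered arrays (0.18). Cpr47Ed differed by -0.16 between Antennapedia[73b] and Oregon[R] (limma adjusted p = 0.037), lost on leaving out any of 7 arrays in turn (up to 0.1). That call was also lost in the 8 direct arrays (0.14), the first 2 arrays of each group (0.36) and the odd-numbered arrays (0.072). Cpr65Ea differed by 0.18 between Apterous[56f] and Oregon[R] (limma adjusted p = 0.027), lost without array 56, 68 or 69 (0.08, 0.067 and 0.075). The 8 direct arrays (0.14), the first 2 (0.39) and last 2 arrays of each group (0.052) and the odd-numbered arrays (0.56) did not give this call either. The 45 members called in no comparison had differences from -0.17 to 0.15.

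**Figure D3:**
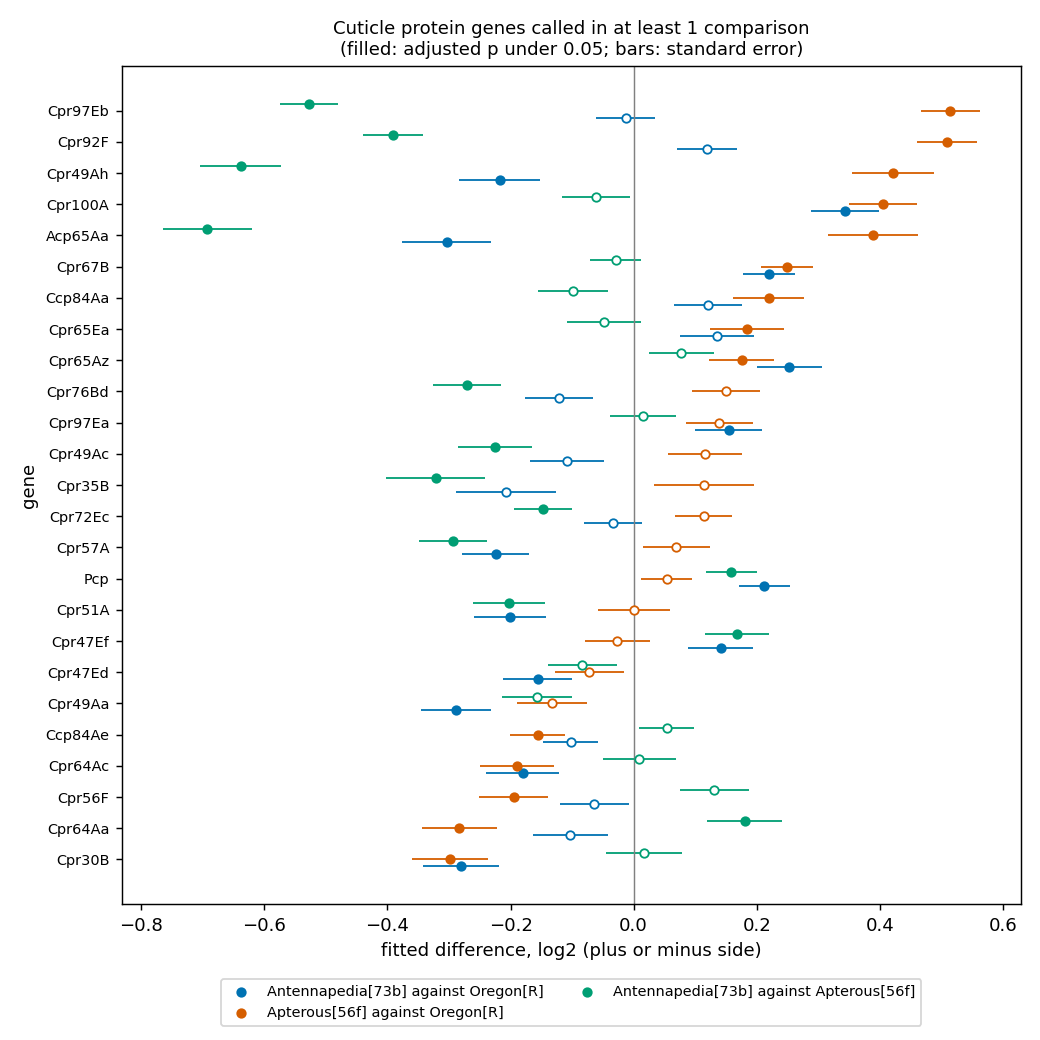
Fitted difference in log2 (horizontal axis, by side) of the 25 cuticle protein genes called in at least 1 comparison (vertical axis), with the SE as a bar; filled points have an adjusted p under 0.05. Cpr97Eb, Cpr92F, Cpr49Ah and Acp65Aa lie farthest to the right in Apterous[56f] against Oregon[R] and farthest to the left in Antennapedia[73b] against Apterous[56f], apart from Cpr100A, which sits among them at 0.40 in the former.

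Of the channel orders of a comparison, those of 10 members did not overlap between Antennapedia[73b] and Oregon[R], those of 8 between Apterous[56f] and Oregon[R], and those of 11 between the mutant strains, beside 17.5%, 12.2% and 13.9% of all rows.

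The Ccp84A genes lie in the Antennapedia complex, in a run of 7 genes from Ccp84Ag to Ccp84Aa, with pb next to Ccp84Aa, Edg84A next to Ccp84Ag and 9 protein-coding genes between the run and Antp. Ccp84Af was not analysed here, and the other 6 were tested. None of the 6 was called between Antennapedia[73b] and Oregon[R], where they differed by -0.10 to 0.12, nor between the mutant strains, where they differed by -0.10 to 0.07. The largest of them, Ccp84Aa, differed by 0.12 between Antennapedia[73b] and Oregon[R] (95% interval 0.01 to 0.23, limma adjusted p = 0.11). The intervals of the 6 genes in that comparison ran from -0.19 to 0.23.

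Ccp84Aa and Ccp84Ae were called on opposite sides between Apterous[56f] and Oregon[R]. Ccp84Aa gave 0.14, 0.14 and 0.21 on the 3 arrays with a value and Apterous[56f] in channel 1, and -0.36, -0.20, -0.49 and -0.14 with Oregon[R] in channel 1. All 7 arrays lay on the plus side, with a difference of 0.22 (SE 0.057, limma adjusted p = 0.0052). Ccp84Ae gave -0.31, -0.26, -0.19 and -0.33, and the opposite order -0.14, -0.13, 0.07 and 0.26. Those orders were apart too, with a difference of -0.16 (SE 0.045, limma adjusted p = 0.012). Ccp84Ab, Ccp84Ac and Ccp84Ad, between them, differed by -0.00, 0.00 and 0.00 (limma adjusted p = 0.98, 0.97 and 1.0), and Ccp84Ag, beyond Ccp84Ae, by 0.11 (limma adjusted p = 0.31). The call of Ccp84Aa was lost in the 8 direct arrays (adjusted p = 0.065) and in the first 2 arrays of each group (0.11). That of Ccp84Ae was lost under 6 alternatives, among them the direct arrays (adjusted p = 0.23), and its difference was -0.05 in the first 2 arrays of each group (0.58) and -0.26 in the last 2 (0.026).

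Of the genes named for the larval cuticle, Lcp65Aa, Lcp65Ad and Lcp65Ae were tested and none was called in any comparison. Acp65Aa lies next to Lcp65Aa in the same cluster. While Acp65Aa differed by -0.69 between Antennapedia[73b] and Apterous[56f], Lcp65Aa differed by 0.05 (95% interval -0.07 to 0.16, limma adjusted p = 0.61).

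By the band in their symbols, 50 of the 70 tested genes fell into 13 loci with 2 or more members, and 20 stood singly. Between Antennapedia[73b] and Oregon[R], 8 of the 50 and 6 of the 20 were called, between Apterous[56f] and Oregon[R] 9 and 5, and between the mutant strains 8 and 5. Of the calls in loci, 2 of 8, 3 of 9 and 6 of 8 were the only call at their locus in these comparisons, and the others shared it with 1 further call. At 97E, Cpr97Eb differed by 0.51 between Apterous[56f] and Oregon[R] and Cpr97Ea by 0.14 (limma adjusted p = 0.072). At 49A, Cpr49Ah differed by 0.42 in that comparison, and the other 4 genes by -0.13 to 0.12 with none called. At 65A, Acp65Aa and Cpr65Az were called there and the other 4 genes were not. No gene at 50C, 62B, 67F or 78C was called in any comparison. At 64A, Cpr64Aa and Cpr64Ac were both called on the minus side in Apterous[56f] against Oregon[R]. The 4 genes there lie within CG43367, which differed by -0.03 (limma adjusted p = 0.75). Transcripts of near-identical neighbours can bind to each other's elements, and the element sequences were not used here.

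**Figure D4:**
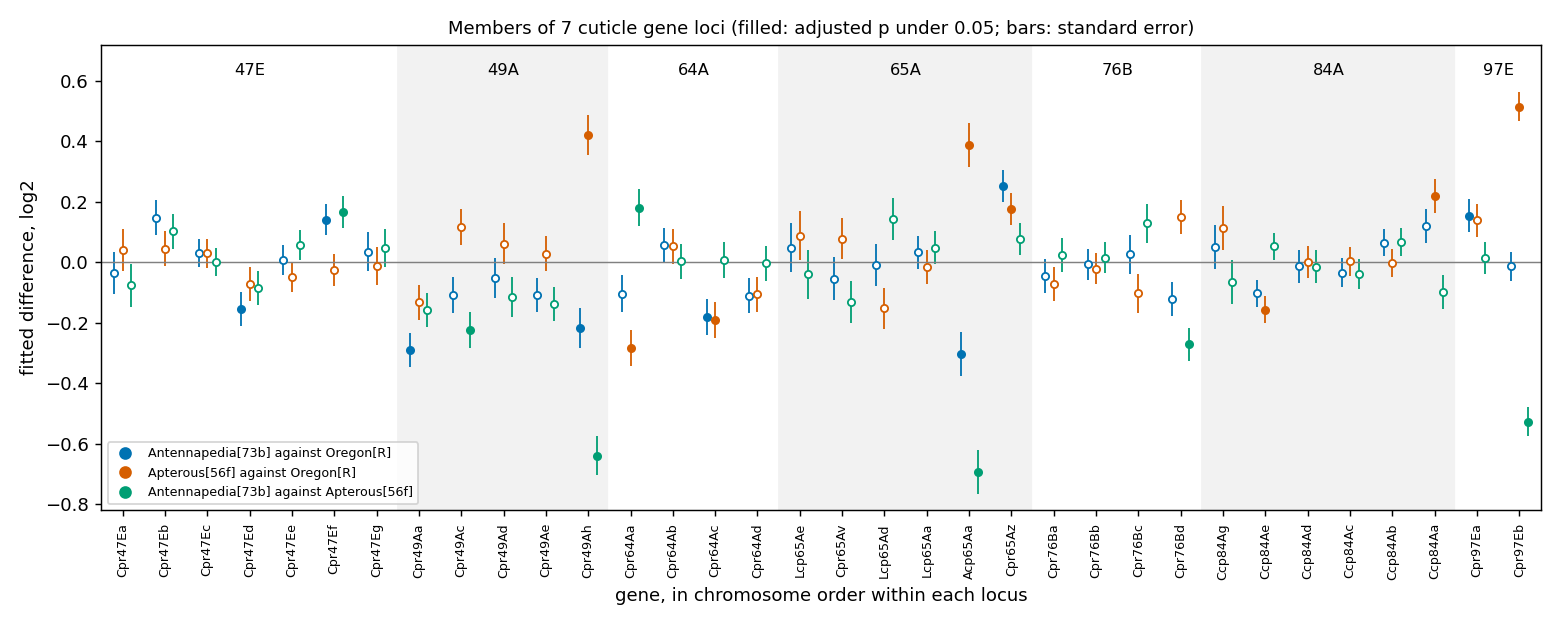
Fitted difference in log2 with its SE (vertical axis) of the tested genes at 7 loci, in chromosome order within each locus (horizontal axis); filled points have an adjusted p under 0.05. Cpr49Ah at 49A, Acp65Aa at 65A and Cpr97Eb at 97E lie farther from 0 than the genes beside them in both comparisons with Apterous[56f].

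The difference from the direct arrays of a pair of strains was set against the indirect path over the third strain. This limma contrast called 0 of 70 members and 0 of 13296 rows, and 4 members and 535 rows had an unadjusted p under 0.05. The widest gap of a member was 0.34, in Cpr72Eb. In Acp65Aa, which had the largest difference of a member, the gap was -0.30 (SE 0.15, limma unadjusted p = 0.053). The gaps of Cpr49Ah, Cpr92F and Cpr97Eb were -0.03, -0.00 and 0.04.

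Other genes of cuticle formation were read from lists chosen by function, with earlier results of these data known. Of 27 tested genes of other chitin-bound cuticle proteins, 7 were called on the plus and 1 on the minus side between Antennapedia[73b] and Oregon[R], 9 and 2 between Apterous[56f] and Oregon[R], and 2 and 7 between the mutant strains. Their medians were 0.05, 0.09 and -0.03, beside 0.00, -0.00 and -0.00 over all rows. Among all rows 11.7% were called on the plus and 11.6% on the minus side in the first comparison. The shares were 8.45% and 7.48% in the second, and 8.33% and 7.38% in the third. The counts of each list below are to be read beside these shares. The Vajk genes, which encode cuticle proteins, lay on the same side as Cpr97Eb between Apterous[56f] and Oregon[R]: Vajk3 differed by 0.44 (limma adjusted p = 1.5e-10), Vajk2 by 0.43 (limma adjusted p = 4.4e-10) and Vajk4 by 0.42 (limma adjusted p = 7e-08). Antennapedia[73b] against Oregon[R] was led in this list by Mur18B at 0.33 (limma adjusted p = 6.9e-08), Vajk3 at 0.23 and CG15515 at 0.24. Of 15 tested Tweedle genes, another family of cuticle proteins, 3, 1 and 2 were called, beside 23.3%, 15.9% and 15.7% of all rows. TwdlG differed by 0.25 between Antennapedia[73b] and Oregon[R] (limma adjusted p = 0.00031), and TwdlT by 0.27 between the mutant strains (limma adjusted p = 0.00023).

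Among 30 tested genes of chitin synthesis and turnover, 10 were called on the plus and 1 on the minus side between Antennapedia[73b] and Oregon[R], 11 and 1 between Apterous[56f] and Oregon[R], and 7 and 7 between the mutant strains. The medians were 0.10, 0.14 and -0.01, and 23.3%, 15.9% and 15.7% of all rows were called. Cht5, a chitinase of the moulting cuticle, differed by 0.86 between Apterous[56f] and Oregon[R] (limma adjusted p = 7.4e-16) and by -0.66 between the mutant strains (limma adjusted p = 3.5e-12), on the sides of Cpr97Eb. The chitin deacetylases verm and serp differed by 0.45 (limma adjusted p = 1.8e-12) and 0.43 (limma adjusted p = 1.9e-08) in the first of these. The chitinase-like growth factors led in Antennapedia[73b] against Oregon[R], with Idgf2 at 0.51 (limma adjusted p = 4.6e-13), Idgf1 at 0.43 (limma adjusted p = 1.5e-09) and Idgf3 at 0.52 (limma adjusted p = 2.7e-09).

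Among 26 tested genes of cuticle tanning and pigmentation, 8 were called on the plus and 4 on the minus side between Antennapedia[73b] and Oregon[R], 9 and 2 between Apterous[56f] and Oregon[R], and 3 and 6 between the mutant strains, with medians of 0.02, 0.10 and -0.03. The gene speck, which encodes an arylalkylamine N-acetyltransferase, differed by 0.61 between Antennapedia[73b] and Oregon[R] (limma adjusted p = 2.9e-12). The gene e, whose product joins beta-alanine to dopamine, differed by 0.44 between Apterous[56f] and Oregon[R] (limma adjusted p = 5.6e-10) and by -0.39 between the mutant strains (limma adjusted p = 1.4e-08).

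**Figure D5:**
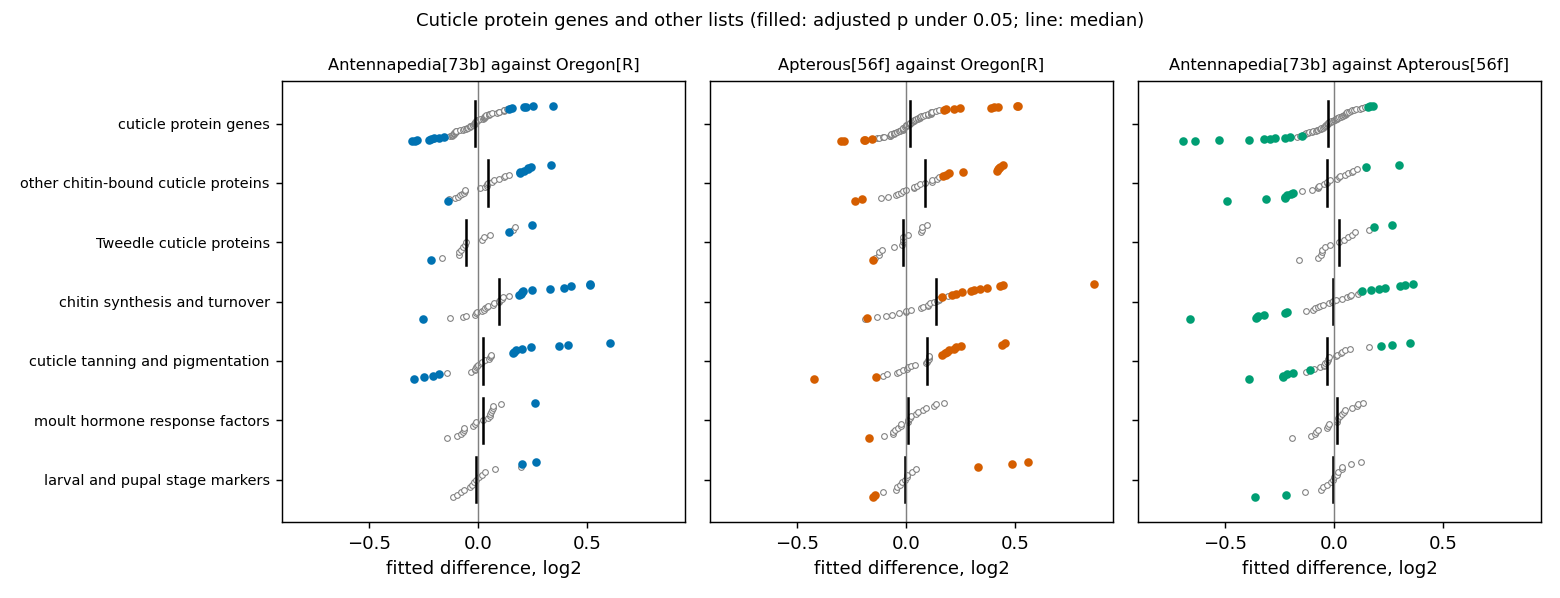
Fitted difference in log2 (horizontal axis) of each tested gene, by list (vertical axis) and comparison (panels); filled points have an adjusted p under 0.05 and the black line is the median of the list. The medians of the cuticle protein genes lie within 0.03 of 0, and those of the chitin genes at 0.10 and 0.14 against Oregon[R].

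The lists of other stages and tissues were read beside these results. Of all rows 23.3%, 15.9% and 15.7% were called in the 3 comparisons. Of 19 tested genes of the moult hormone and its response, 1, 1 and 0 were called by limma. These were shd at 0.26 between Antennapedia[73b] and Oregon[R] and usp at -0.17 between Apterous[56f] and Oregon[R]. Of 15 tested markers of larvae and pupae, 2, 3 and 0 were called on the plus side and 0, 2 and 2 on the minus side, with medians of -0.01, -0.01 and -0.00. The fat body genes Fbp1 and Fbp2 differed by 0.56 (limma adjusted p = 8.6e-13) and 0.49 (limma adjusted p = 5.4e-10) between Apterous[56f] and Oregon[R], and Sgs1, a salivary glue gene, by 0.33 (limma adjusted p = 0.0055). These 3 were named for their smallest p. The list had no common side in that comparison: 2 markers were called on the minus side, and the lowest difference was -0.15.

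The tissue lists differed more. Of 19 tested ovary and egg shell markers, 17 were called on the minus side between Antennapedia[73b] and Oregon[R] and 18 between Apterous[56f] and Oregon[R], none on the plus side, with medians of -0.68 and -0.41. For the mutant strains 13 were called on the minus and 2 on the plus side, with a median of -0.29. Of 17 tested accessory gland markers, 7, 13 and 1 were called on the minus side and 1, 1 and 7 on the plus side, with medians of -0.15, -0.29 and 0.08. The part of these shifts in the cuticle differences was not tested.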

How the data were processed

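Per the labels, RNA of adult flies was labelled with Cy3 (channel 1) or Cy5 (channel 2) and scanned on a GenePix 4000A. The deposited table holds a signed fold ratio per spot, a unit read from the values. These ratios are coarse: 19.1% of them were exactly 1 or -1, and the smallest log2 step from there was 0.14. The smallest called differences, such as 0.14 for Cpr47Ef between Antennapedia[73b] and Oregon[R], are about the size of this step. Across arrays the correlation between the 2 spots of an element ran from 0.19 to 0.83, with a median of 0.58. The sources used here give neither the later steps nor what a positive ratio means. Centring before deposit is unknown: the median was 1 or -1 on 32 arrays and 1.1 on 4. The sign times the log2 of the size was centred on each array's median. Of 31464 spots per array, 26362 to 30716 had a value, and the number of arrays limits the precision.

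Both spots of an element, then the elements of a gene, were averaged. Symbols came from the probe table and were updated through a RefSeq table of assembly Release 6 for 12107 elements by gene ID. A row was tested with at least 2 of 4 values in each of the 9 groups. limma 3.58.1 (R 4.3.3, lmFit and eBayes, two-sided) fitted a dye intercept and strain terms over 36 arrays, with Benjamini-Hochberg adjustment over 13296 rows. A strain stood apart where it was called against both others on the same side. The steps were tested on simulated data.

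Members and lists were chosen with earlier results of these data known. Named members were, per comparison, the 6 called with the largest difference on each side, plus Acp1, Acp65Aa, Pcp and the Ccp84A genes. Lists gave up to 3 called genes with the smallest p per comparison. Alternatives covered centring, filters, duplicates, dye, array subsets, blocks and each array left out. Place in the group (first or last 2 arrays) and parity (odd or even), both taken from the array numbers, served to split the arrays into subsets. The labels do not name them as batches.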

Additional observations from a re-analysis of the deposited data

Results flagged for a closer look

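In 71 groups of 4 arrays checked for the named members, 4 held an array set apart from the other 3. The gap to the nearest array was then over 0.829 of the range of the group. Chance flags about 1 in 20 groups of continuous, normal values, a rate that need not hold for these coarse ratios with ties. For Cpr64Ac with Oregon[R] in channel 1 and Antennapedia[73b] in channel 2, array 52 gave -0.41 and the others 0.00, 0.00 and 0.07. For Cpr100A with Apterous[56f] in channel 1 and Oregon[R] in channel 2, array 68 gave 0.79 and the others 0.34, 0.38 and 0.41. Cpr49Ah in the same group gave 0.38 on array 69 and 0.54 on each of the others. Cpr51A with Antennapedia[73b] in channel 1 and Apterous[56f] in channel 2 gave -0.0747 on array 60, and the others gave -0.20, -0.20 and -0.19.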

How the results depend on the processing

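Of the called members, 10 of 14, 11 of 14 and 10 of 13 kept their call on leaving out each of the 36 arrays in turn, in Antennapedia[73b] against Oregon[R], Apterous[56f] against Oregon[R] and Antennapedia[73b] against Apterous[56f]. Under every alternative in which they were tested, 3, 5 and 5 kept it. Leaving out 1 array gave 11 to 16, 13 to 15 and 11 to 15 called members, and 31 to 36, 31 to 39 and 31 to 37 called genes over the other cuticle lists. The medians of the members then ran from -0.03 to -0.01, from 0.00 to 0.03 and from -0.04 to -0.02. All called rows numbered 2831 to 3129, 1864 to 2157 and 1868 to 2149. The triangle contrast called 0 members throughout, and it could not be fitted in the 8 direct arrays.

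The count of called members between Antennapedia[73b] and Oregon[R] (14) was 8 in the 8 direct arrays, 8 in the last 2 arrays of each group, 8 in the even-numbered and 7 in the odd-numbered arrays. Between Apterous[56f] and Oregon[R] (14) it was 9 without the dye term, 6 in the direct arrays (all on the plus side), 9 in the first 2 arrays and 9 in the odd-numbered arrays. Between the mutant strains (13) it was 8 in the direct arrays, 8 in the last 2, 6 in the even-numbered and 8 in the odd-numbered arrays. All called rows fell in the same settings, given here in the same order. Between Antennapedia[73b] and Oregon[R] they went from 3097 to 1806, 1467, 1723 and 1623. Between Apterous[56f] and Oregon[R] they went from 2118 to 1236, 744, 1365 and 1283. Between the mutant strains they went from 2088 to 965, 928, 990 and 1158. The called genes over the other cuticle lists numbered 35, 36 and 34, from lists of 27, 15, 30, 26 and 19 tested genes. In the first comparison they were 19 in the last 2, 15 in the even-numbered and 21 in the odd-numbered arrays. In the second they were 20 in the direct arrays, 22 in the first 2 and 16 in the even-numbered arrays. In the third they were 18 in the direct arrays, 19 in the last 2, 22 in the even-numbered and 16 in the odd-numbered arrays. These subsets hold fewer arrays, and fewer rows were tested in those by place or parity.

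Cpr64Ac in Apterous[56f] against Oregon[R] turned to 0.018 in the even-numbered arrays (adjusted p = 0.92), and the cause was not tested. Without centring, the plus side held 40.5% of all called rows between Apterous[56f] and Oregon[R] in place of 53.0%, and 62.6% in place of 53.0% between the mutant strains. No paired analysis was possible because no groups share replicate numbers.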
